A study of Mus musculus with 6 samples.

Results

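The genes described here are 7 of the 32285 in the deposited tables: the glycine receptor subunit genes Glra1, Glra2, Glra3 and Glrb, the glycine transporter genes Slc6a5 and Slc6a9, and Gphn, which encodes the scaffold protein gephyrin. They were taken by symbol, and each symbol matched 1 row in all 6 libraries. The libraries hold single nuclei of pons and medulla taken from male wild-type C57BL6/J mice, bred by timed mating, weaned on postnatal day 21 and housed with littermates. In 3 libraries the mice had been kept in chronic intermittent hypoxia (CIH) for 21 days, from postnatal day 22 to day 43. Each cycle lowered oxygen to between 4.5 and 5% by 60 seconds of nitrogen and returned it to 21% with air over up to 5 minutes, and 80 cycles filled 8 hours a day. The other 3 libraries came from mice kept in room air (normoxia). Whether each library holds 1 mouse or several is not given in the labels, and p-values here measure the spread between libraries. The design sets expression in the pons and medulla after CIH against that in room air.

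Glycine is the main fast inhibitory transmitter of the brainstem and spinal cord, beside GABA. Its receptor is a chloride channel of 5 subunits that joins ligand-binding alpha subunits (Glra1, Glra2, Glra3) with the beta subunit (Glrb), which binds gephyrin and so holds the receptor at the synapse. Neurons that release glycine take it up again through GlyT2 (Slc6a5), while GlyT1 (Slc6a9), best known from astrocytes, clears it from the cleft. In the medulla and pons glycinergic neurons shape the breathing rhythm, and Glra2 is best known as the subunit of immature neurons.

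The 7 genes lie apart in the genome (mm10, GENCODE release M21). On the minus strand are Glra1 (ENSMUSG00000000263, chromosome 11, 55514238 to 55608198), Glra2 (ENSMUSG00000018589, chromosome X, 165129017 to 165327393) and Glrb (ENSMUSG00000028020, chromosome 3, 80843599 to 80913660). On the plus strand are Glra3 (ENSMUSG00000038257, chromosome 8, 55940460 to 56130070), Slc6a5 (ENSMUSG00000039728, chromosome 7, 49910146 to 49963856) and Slc6a9 (ENSMUSG00000028542, chromosome 4, 117834506 to 117875198). Gphn (ENSMUSG00000047454), the longest at 458.4 kb, is also read from the plus strand, between 78226379 and 78684772 of chromosome 12. Genes annotated on the opposite strand overlap Glra1 (Gm12236), Slc6a9 (Gm17114, Ccdc24 and B4galt2) and Gphn (Gm48226). Whether strand was used in counting is not given in the sources used here, so reads of these partners may not be fully separable.

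The start regions of 6 of the 7 genes are in the RefSeq promoter table (GRCm38.p6). The 250 bases before 1 RefSeq start are shown for 3 of them, which stand for 3 patterns of use described below: a gene of 1 neuron class, a glial gene and a gene read in every population. RefSeq starts differ from the GENCODE spans above, so the windows shown overlap those spans. Each is written 5′ to 3′ on the gene's own strand, with every CG dinucleotide in capitals.
Slc6a5 (chr7:49910049-49910298, plus strand): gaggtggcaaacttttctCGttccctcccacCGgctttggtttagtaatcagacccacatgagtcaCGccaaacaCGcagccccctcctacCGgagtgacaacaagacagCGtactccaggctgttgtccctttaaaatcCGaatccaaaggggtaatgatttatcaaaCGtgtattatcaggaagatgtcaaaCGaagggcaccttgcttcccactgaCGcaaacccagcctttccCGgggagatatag
Slc6a9 (chr4:117835008-117835257, plus strand): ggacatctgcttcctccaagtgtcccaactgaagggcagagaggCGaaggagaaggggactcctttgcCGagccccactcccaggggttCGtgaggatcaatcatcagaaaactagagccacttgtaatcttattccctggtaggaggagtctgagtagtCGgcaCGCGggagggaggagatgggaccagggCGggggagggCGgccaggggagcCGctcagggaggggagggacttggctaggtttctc
Gphn (chr12:78226405-78226654, plus strand): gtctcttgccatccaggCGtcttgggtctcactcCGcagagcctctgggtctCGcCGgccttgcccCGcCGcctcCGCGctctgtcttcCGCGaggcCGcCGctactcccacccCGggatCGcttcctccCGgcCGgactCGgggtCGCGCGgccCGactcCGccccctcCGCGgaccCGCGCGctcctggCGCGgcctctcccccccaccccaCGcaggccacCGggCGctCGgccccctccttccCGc
The Gphn window held 34 CG dinucleotides and a GC content of 77.2%, against a median of 6 and 52.4% over 32841 promoter windows of the same length. The Slc6a5 window held 11 and the Slc6a9 window 9, and Glrb held 20, Glra2 8 and Glra3 4 in windows not shown. The motif GGGCGG, searched on both strands, is present in 32.7% of all windows. It was found at 2 places in the Slc6a9 window shown, at 1 in that of Gphn and not in that of Slc6a5. Slc6a5 has a further start window, from 49911450, with 7 CG dinucleotides. Slc6a9 has others from 117849100, with 10, and from 117855297, with 8. GGGCGG was found in none of these further windows. The motif TATAAA, also searched on both strands, is present in 12.4% of all windows and among the members was found in that of Glra2 alone.

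Before the results, several properties of the libraries bear on every comparison. Nuclei were kept from 500 genes upward if mitochondrial RNA made up no more than 5% of their UMIs (unique molecular identifiers, which mark single captured RNA molecules). These were 40139 of 43836 barcodes, with medians of 2349 to 3638.5 UMIs per nucleus and library totals of 26733243 to 46754345 UMIs. Normoxia 2 shared 1163 barcodes with CIH 1, which is 17.6% of its kept nuclei and 26.7% of those of CIH 1, whereas the other pairs of libraries shared 0.046 to 0.378%. The shared nuclei had a median of 9858 UMIs in CIH 1 and 1232 in Normoxia 2, and their profiles correlated at a median r of 0.599 over 300 of them, against 0.378 for neighbouring barcodes. They were left out of Normoxia 2, which left 38976 nuclei. CIH 3 had a median mitochondrial share of 0.366%, against 0.062 to 0.096% elsewhere. The chi-square statistic per gene over all nuclei was 2.38 between CIH 1 and CIH 2 and 2.34 between Normoxia 1 and Normoxia 2, and it ran from 18.2 to 64.8 between all other pairs. The statistic treats each UMI as an independent draw, although UMIs come grouped in nuclei. It therefore cannot show whether the libraries of a close pair are separate samples, and they were counted as such. With each close pair summed to 1 sample, 0 of the 7 genes were called between CIH and normoxia in any population. Such a fit has fewer samples than one of all 6 libraries, so this count cannot show that the genes are unchanged. Comparisons between classes were not refitted in this way.

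Nuclei were assigned to classes from marker genes, none of them a member except where stated, and 30026 of 38976 could be assigned. The classes held 15245 neurons, 11922 oligodendrocytes, 1240 microglia, 686 endothelial nuclei, 527 astrocytes and 225 oligodendrocyte precursors, besides 123 mural, 51 fibroblast and 7 ependymal nuclei. Among the neurons, 1676 were excitatory by their vesicular glutamate transporters and 2803 inhibitory by Gad1, Gad2 and Slc32a1. A further 3501 carried markers of cerebellar granule neurons, which lie outside the labelled region, 84 were cholinergic, 82 serotonergic and 7099 had no clear transmitter. Levels below are counts per 1000000 UMIs of a population in 1 library (CPM). They are compared for 1 gene across populations and not between genes.

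Glra1, the subunit of the adult receptor in brainstem and spinal cord, was a gene of neurons in these libraries. Excitatory nuclei held 190.9, 192.8 and 241.8 CPM in the CIH libraries and 280.2, 299.0 and 226.5 CPM in the normoxia libraries. Inhibitory nuclei held 153.5, 153.3 and 192.9 CPM after CIH and 226.0, 234.8 and 176.5 CPM in room air. In both classes CIH 1 and CIH 2 were lowest, Normoxia 1 and Normoxia 2 were highest, and CIH 3 lay above Normoxia 3. Granule nuclei held 74.0 to 140.2 CPM and oligodendrocytes 7.0 to 18.3 CPM.

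Over the 6 libraries the order of Glra1 means was cholinergic (252 ± 46.4 CPM, SD, 5 libraries with at least 5 nuclei), excitatory (239 ± 44.5), neurons without a clear transmitter (221 ± 44.3), inhibitory (189 ± 35.1), serotonergic (149 ± 73.7) and granule (101 ± 24.3). Neighbours in this order lay within 1 SD of each other. Every glial and endothelial class averaged 12.5 to 14.7 CPM, a like low level across types. Glra1 had at least 1 UMI in 65.1% of excitatory, 58.9% of inhibitory and 3.31% of oligodendrocyte nuclei, whose depth is lower.

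Within libraries, neurons exceeded oligodendrocytes in Glra1 by 3.65 on the log2 scale (SE 0.087, adjusted p = 2.75e-13, edgeR quasi-likelihood test with Benjamini-Hochberg adjustment, higher in 6 of 6 libraries). These classes differ in most of the transcriptome: 81.2% of all genes tested were called in this pair. Inhibitory nuclei held less Glra1 than excitatory nuclei, at −0.36 (SE 0.041, adjusted p = 4.11e-06), lower in 6 of 6 libraries, in a pair with 12.1% of all genes called. Granule nuclei held less than excitatory nuclei, at −1.23 (SE 0.092, adjusted p = 5.94e-09), again in 6 of 6 libraries, with 47.8% of all genes called. The opposite-strand gene Gm12236 held 37.2 to 91.6 CPM in neurons and 1.12 to 4.69 CPM in oligodendrocytes, so it too was neuronal. In neurons it held 37.2, 39.9 and 63.5 CPM after CIH and 70.9, 71.2 and 91.6 CPM in room air. Each CIH library lay below each normoxia library, as for 9.46% of all genes tested in neurons. Its part in the Glra1 values was not tested.

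Inhibitory nuclei differed among themselves in Glra1. Those with a Slc6a5 UMI (1250 nuclei, median 9746 UMIs) held 225.4, 209.9 and 243.2 CPM after CIH and 242.0, 269.8 and 214.4 CPM in room air. Those without one (1553 nuclei, median 6296 UMIs) held 83.6, 93.7 and 149.5 CPM after CIH and 191.7, 153.9 and 142.9 CPM in room air. The ranges did not overlap: every library of the first set lay above every library of the second. The difference was 0.81 (SE 0.09, adjusted p = 1.59e-06, edgeR), against 11.2% of all genes called. Because a Slc6a5 UMI is found more often in deeper nuclei, the second set also holds glycinergic nuclei in which Slc6a5 was missed.

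Glra2, the subunit named above for immature neurons, was also read in neurons of these mice, with 33.7 to 54.0 CPM in excitatory, 38.0 to 56.9 in inhibitory and 29.8 to 65.5 in granule nuclei. The ranges of these 3 classes overlapped. Serotonergic nuclei stood above them, a class that was singled out after its values were seen and therefore has no test. They held 212.0, 202.3 and 150.0 CPM after CIH and 140.8, 285.7 and 141.9 CPM in room air. The lowest serotonergic library lay above the highest library of the excitatory, inhibitory and granule classes. This rests on 161 UMIs in 82 nuclei, of which 45 (54.9%) had a Glra2 UMI, against 24.9% of excitatory and 22.4% of inhibitory nuclei. Oligodendrocytes held 1.40 to 4.54 CPM of Glra2, and the neuron to oligodendrocyte difference was 3.84 (SE 0.111, adjusted p = 1.46e-12, edgeR), higher in 6 of 6 libraries.

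Glra3, an alpha subunit known from dorsal horn and brainstem neurons, was again neuronal. Excitatory nuclei held 67.7, 83.0 and 82.9 CPM after CIH and 61.7, 60.4 and 74.9 CPM in room air. Inhibitory nuclei held 53.1, 61.1 and 75.3 CPM after CIH and 50.6, 63.2 and 79.4 CPM in room air. The classes overlapped, and their difference of −0.18 (SE 0.071) did not pass (adjusted p = 0.124 in edgeR), although it did without Normoxia 3 (−0.24, adjusted p = 0.0499). Neurons exceeded oligodendrocytes by 3.38 (SE 0.1, adjusted p = 1.79e-12), and granule nuclei stood below excitatory nuclei with a log2 difference of −1.18 (SE 0.117, adjusted p = 2.06e-07), lower in 6 of 6 libraries. No Glra3 UMI was seen in the 123 mural and 51 fibroblast nuclei.

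Within the inhibitory class, the other alpha subunits leaned away from Glra1. Nuclei with a Slc6a5 UMI averaged 56.7 CPM of Glra3 and 40.7 CPM of Glra2, and nuclei without one averaged 72.4 and 51.2 CPM. The differences were −0.36 for Glra3 (SE 0.092, adjusted p = 0.0111, lower in 5 of 6 libraries) and −0.32 for Glra2 (SE 0.097, adjusted p = 0.034, lower in 6 of 6), both in edgeR. The Glra3 call was lost without CIH 3 (adjusted p = 0.0756) or Normoxia 3 (0.083), and the Glra2 call without CIH 3 (0.178), Normoxia 1 (0.0619) or Normoxia 2 (0.106). Both calls were also lost with DESeq2 (adjusted p = 0.214 for Glra3 and 0.339 for Glra2), with the stricter gate (0.466 and 0.111) and without the library block (0.136 and 0.151). The Glra2 call was lost without cerebellar nuclei as well (0.0671). With classes taken from clusters the Glra2 difference turned sign, to 0.88 (adjusted p = 0.554).

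Few nuclei showed RNA of more than 1 alpha subunit. With every nucleus thinned to 2000 UMIs, between 29.4 and 43.1% of inhibitory nuclei per library had a UMI of any of the 3 alpha genes, and 3.04 to 7.14% had UMIs of at least 2. In excitatory nuclei the ranges were 40.1 to 50.5% and 4.81 to 6.67%. Glra1 and Glra3 were found together in 1.01 to 3.61% of inhibitory nuclei, and the product of their separate shares ranged from 1.32 to 3.48%. At this depth most molecules are missed, while free RNA can add detections, so these shares bound joint expression on neither side.

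Glrb, the beta subunit that anchors the receptor, was not restricted to neurons. Inhibitory nuclei held 164.9, 171.5 and 147.3 CPM after CIH and 190.0, 187.2 and 170.2 CPM in room air. Excitatory nuclei held 153.6, 156.0 and 135.3 CPM after CIH and 178.7, 175.7 and 176.2 CPM in room air. Oligodendrocytes held 167.9, 158.6 and 134.8 CPM after CIH and 186.2, 184.8 and 162.8 CPM in room air. The 3 classes covered much the same range, and the same library, CIH 3, was lowest in each.

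Oligodendrocyte precursors averaged 152 ± 24.0 CPM of Glrb, level with neurons and oligodendrocytes within 1 SD. Astrocytes averaged 56.9 ± 19.8, endothelial nuclei 40.3 ± 16.05 and microglia 37.2 ± 14.0 CPM (SD, n = 6), and these 3 overlapped each other. Astrocytes stood below oligodendrocytes with a log2 difference of −1.75 (SE 0.18, adjusted p = 9.1e-20, edgeR), lower in 6 of 6 libraries, with 45.7% of all genes called in this pair. Neurons and oligodendrocytes gave a fitted difference of −0.17 (SE 0.056, adjusted p = 0.0148). That small difference depends on the scaling: in plain CPM, neurons averaged 168.7 and oligodendrocytes 165.9, with neurons higher in 4 of 6 libraries, and the call was lost without CIH 1 (adjusted p = 0.0578). Glrb was not called different between inhibitory and excitatory nuclei (0.05, SE 0.045, adjusted p = 0.621) or between inhibitory nuclei with and without a Slc6a5 UMI (0.05, SE 0.056, adjusted p = 0.644) in edgeR. Oligodendrocytes thus held Glrb RNA at a neuronal level beside Glra1, Glra2 and Glra3 levels at or under 18.3 CPM.

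**Figure D1:**
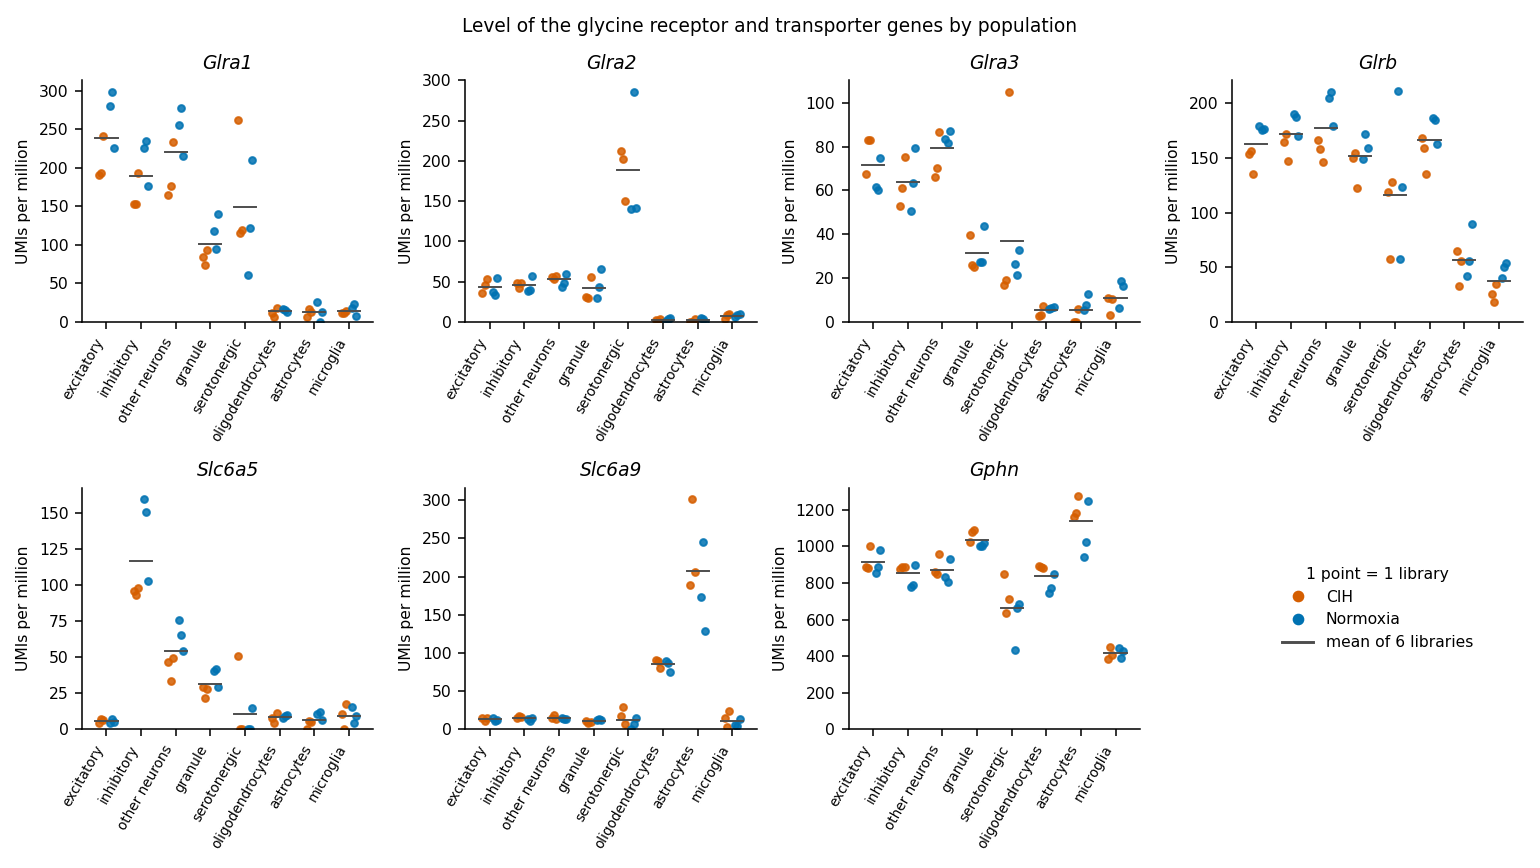
CPM (y axis) of each of the 7 genes in 8 populations (x axis), 1 point per library, with a line at the mean of the 6 libraries. Glra1 and Glra3 are high in neurons alone, Glra2 is highest in serotonergic nuclei, Glrb is alike in neurons and oligodendrocytes, Slc6a5 is highest in inhibitory nuclei, Slc6a9 in astrocytes, and Gphn is read in every population shown.

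Slc6a5, the transporter of glycine-releasing neurons, marked a part of the inhibitory class. Inhibitory nuclei held 96.1, 93.2 and 98.3 CPM after CIH and 159.6, 150.6 and 102.7 CPM in room air. Excitatory nuclei held 4.3, 7.0 and 6.2 CPM after CIH and 4.2, 7.2 and 5.4 CPM in room air. The excitatory values lie at the level of oligodendrocytes (4.2 to 11.1 CPM) and cholinergic nuclei (0 to 8.75 CPM), so they are read as background. The inhibitory to excitatory difference was 4.31 (SE 0.111, adjusted p = 1.47e-15, edgeR), higher in 6 of 6 libraries. Slc6a5 had the largest difference of the 7 genes between these classes, which were defined by Slc32a1 and other genes and not by Slc6a5.

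Nuclei gated as granule neurons held 21.7 to 41.8 CPM of Slc6a5, above excitatory nuclei by 2.46 (SE 0.166, adjusted p = 1.82e-09, edgeR) in 6 of 6 libraries. Slc32a1, the vesicular transporter of glycine and GABA, averaged 15.5 CPM there and 1.35 CPM in excitatory nuclei. The granule gate does not ask for a transmitter, and the part of inhibitory nuclei in it was not tested. The neurons without a clear transmitter held 33.4 to 75.5 CPM.

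The share of inhibitory nuclei with a Slc6a5 UMI was compared after thinning each nucleus to 1000 UMIs, which left out 4 shallower nuclei in all. It was 7.33, 7.07 and 8.91% in CIH and 14.4, 12.9 and 9.94% in normoxia. The highest CIH library lay below the lowest normoxia library, with CIH 3 and Normoxia 3 the nearest. The mean was 7.77 ± 0.99% in CIH and 12.4 ± 2.29% in normoxia (SD, n = 3), and the two-sided exact permutation p was 0.1, the smallest that 20 assignments allow. In oligodendrocytes, which should lack the gene, 0.61 to 1.35% of thinned nuclei had a Slc6a5 UMI. Without thinning the shares were 39.7, 38.0 and 37.0% in CIH and 58.0, 58.5 and 39.6% in normoxia (exact permutation p = 0.2), at median depths of 6519 to 8919 UMIs. In nuclei summed per library, fewer glycinergic nuclei and less Slc6a5 RNA per nucleus cannot be told apart from this share.

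**Figure D2:**
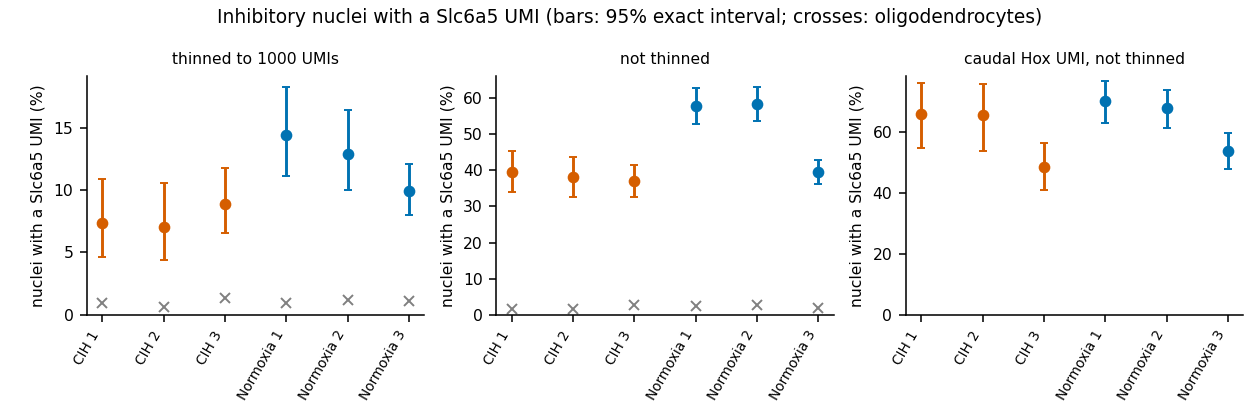
Percentage of inhibitory nuclei with a Slc6a5 UMI (y axis) by library (x axis), with 95% exact binomial intervals that cover counting error alone; crosses give oligodendrocytes. After thinning to 1000 UMIs the CIH libraries range from 7.07 to 8.91% and the normoxia libraries from 9.94 to 14.4%, while among nuclei with a caudal Hox UMI the groups overlap.

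Slc6a9, the glial transporter, was highest in astrocytes. They held 189.0, 301.3 and 206.5 CPM after CIH and 173.7, 245.7 and 128.4 CPM in room air, with 36 to 260 nuclei per library. Oligodendrocytes held 90.5, 88.9 and 80.9 CPM after CIH and 89.5, 87.2 and 75.2 CPM in room air. Every astrocyte library lay above every oligodendrocyte library, and the groups of mice overlapped in both classes. Neurons held 12.4 to 14.2 CPM, and microglia and precursors averaged 11.1 and 19.5 CPM. At least 1 UMI was found in 43.8% of astrocyte, 20.5% of oligodendrocyte and 12.3% of excitatory nuclei, the last of which are the deepest.

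Astrocytes exceeded oligodendrocytes in Slc6a9 by 1.03 (SE 0.149, adjusted p = 9.09e-11, edgeR), and neurons stood below oligodendrocytes at −2.83 (SE 0.072, adjusted p = 4.66e-13), in 6 of 6 libraries each. The antisense partner Ccdc24 followed Slc6a9 across the 13 gated classes with a Pearson r of 0.94, and reads of the pair cannot be fully separated without strand. Ccdc24 stood at 24.7 to 33.3 CPM in oligodendrocytes and 3.85 to 5.58 CPM in neurons.

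Gphn, which clusters glycine and GABA-A receptors and also serves molybdenum cofactor synthesis in all cells, was read in every population. Astrocytes averaged 1138 ± 130.2 CPM, granule nuclei 1036 ± 39.0, excitatory nuclei 915 ± 60.9, inhibitory nuclei 852 ± 53.1, oligodendrocytes 838 ± 63.1 and precursors 831 ± 123 CPM (SD, n = 6). Serotonergic nuclei followed at 663 ± 135, endothelial nuclei at 638 ± 91.9 and microglia at 417 ± 27.9 CPM. The steps from granule to excitatory nuclei, from oligodendrocytes and precursors to serotonergic nuclei and from endothelial nuclei to microglia were larger than the SDs on either side, and the other neighbours lay within about 1 SD. Neurons and oligodendrocytes were not called different (−0.08, SE 0.056, adjusted p = 0.199, edgeR), while in plain CPM neurons were higher in 6 of 6 libraries, at 905 against 838. Smaller differences between neuron classes were called as well. Gphn was lower in inhibitory than in excitatory nuclei (−0.13, SE 0.041, adjusted p = 0.0372, lower in 5 of 6 libraries, edgeR), a call lost when any of CIH 3, Normoxia 1, Normoxia 2 or Normoxia 3 was left out (adjusted p from 0.0999 to 0.153). It was higher in granule than in excitatory nuclei (0.20, SE 0.061, adjusted p = 0.0128) and higher in inhibitory nuclei with a Slc6a5 UMI than without (0.17, SE 0.049, adjusted p = 0.0245), in 6 of 6 libraries each. The first of these was lost without CIH 2 (adjusted p = 0.0539), and the second without CIH 1, CIH 3, Normoxia 1 or Normoxia 2 (adjusted p from 0.0522 to 0.117) and turned to −0.16 with classes from clusters.

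As a description, the genes whose mean levels followed each member most closely over the 13 gated classes were found among 15111 genes. The classes share their libraries and differ in depth, so the correlations carry no test. For Glra1 they were Meg3 (Pearson r 0.99), Cntnap2, Cntnap5a, Gm17171 and Rian, for Glra2 Galntl6 (0.98), D130043K22Rik, Meg3, Nyap2 and Snhg11, and for Glra3 Kcnab2 (0.99), Gm9866, Cntnap5b, Nrg4 and Gm13619. For Glrb they were Rnf32 (0.93), Gm27241, Robo1, Ube2e2 and Kcnab1. For Slc6a5 they were Rnf227 (0.75), Gm14204, Gm27199, Slc32a1 (0.70) and Lhx1os, and for Slc6a9 Rhou (0.95), Ccdc24, Pxmp2, C730002L08Rik and the astrocyte marker Aldh1l1 (0.90). For Gphn they were C130071C03Rik (0.93), 1700019D03Rik, Phactr3, Kirrel3 and 4933402D24Rik. Marker genes of the classes were not left out. Snhg11, Slc32a1 and Aldh1l1 are such markers, so their pattern over the classes is set in part by the gate. Among the members, Glra1 followed Glra2 (0.91) and Glra3 (0.86) more closely than Glrb (0.56), and it ran against Slc6a9 (−0.31).

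The wider glycine pathway was read through 22 further genes. They cover glycine synthesis and cleavage, chloride transport, the inhibitory postsynapse, other amino acid carriers, molybdenum cofactor synthesis, the subunit gene Glra4 and Slc32a1. Between neurons and oligodendrocytes 11 of 21 tested were higher in neurons and 8 lower, where 42.1% of all genes were higher and 39.1% lower. Slc12a5, the chloride extruder KCC2 that makes glycine inhibitory, averaged 135.9 CPM in neurons and 21.0 in oligodendrocytes (2.49). Slc12a2, the chloride importer NKCC1, averaged 78.2 and 811 CPM (−3.58). The postsynaptic genes Iqsec3 (3.91), Mdga1 (2.69), Nlgn2 (1.78) and Lhfpl4 (0.96) were higher in neurons, whereas the dynein light chain gene Dynll1 was lower (−0.94).

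In astrocytes, 7 of 21 tested pathway genes were higher and 1 lower than in oligodendrocytes, against 21.2% and 24.5% of all genes. They included Slc7a10, the alanine-serine-cysteine transporter that carries glycine (433 against 4.29 CPM, 6.47), Slc38a3, a glutamine carrier (4.25), and Gldc, the decarboxylase of the glycine cleavage system (35.3 against 1.08 CPM, 4.66). Amt, the cleavage system's aminomethyltransferase, Mocs2 and Nlgn2 were higher as well, and Slc12a2 was lower (53.8 against 811 CPM, −4.11). Both Slc6a9 and the cleavage gene Gldc were thus higher in astrocytes than in oligodendrocytes.

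Between inhibitory and excitatory nuclei, 1 of 18 tested pathway genes was higher and 2 were lower, against 4.95% and 7.14% of all genes. Gldc was higher (8.94 against 1.16 CPM, 2.71, adjusted p = 2.59e-05 in edgeR), and Mdga1, which restrains neuroligin at inhibitory synapses, was lower (9.62 against 31.9 CPM, −1.72), as was Iqsec3 (−0.24). Inside the inhibitory class Gldc was lower in nuclei with a Slc6a5 UMI than in those without (3.44 CPM, −2.18), as was Mdga1 (−1.05), while Iqsec3 was higher (0.45). That is 1 higher and 2 lower of 17 tested, against 5.78% and 5.47% of all genes. Of 18 pathway genes in granule against excitatory nuclei, 5 were higher, namely Slc12a2 (1.38), Slc7a10 (1.39), Gldc (1.48), Dynll1 (0.43) and Dynll2 (0.34), and Iqsec3 was lower (−1.08), against 23.1% and 24.7% of all genes. Cholinergic nuclei, which include motor neurons that receive glycinergic input, differed from excitatory nuclei in 0 of 6 members tested and in Iqsec3 (−0.67, adjusted p = 0.0225) among 15 pathway genes, with 5.68% of all genes called (2.96% higher, 2.71% lower) and only 2 to 23 nuclei per library.

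Between CIH and normoxia, 0 of the 7 genes passed in any of the 13 populations tested. The share of all genes called was itself close to nothing, from 0 to 0.101% by population: 0.00509% in all nuclei, 0% in all neurons and in excitatory nuclei, 0.00715% in inhibitory nuclei, 0.00806% in inhibitory nuclei with a Slc6a5 UMI, 0.0198% in neurons without a clear transmitter and 0.00738% in oligodendrocytes. In counts simulated from the inhibitory sums 74% of the genes changed 2-fold were called, and 98% of those changed 4-fold, in a table of 13793 genes. Of the 195 calls there, 23 were false. Over the 13 populations the 2-fold figure ran from 42% in endothelial nuclei to 77% in inhibitory nuclei without a Slc6a5 UMI. It was 50% in oligodendrocytes and 62% in granule nuclei. The members' differences were smaller than 2-fold in all neuron classes. The values below are therefore measured differences that did not pass.

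Glra1 was lower in CIH in each of the 9 populations in which it was tested, which overlap in part. In 5 populations without shared nuclei (excitatory, inhibitory, granule and other neurons, and oligodendrocytes) the log2 fold change ran from −0.49 to −0.25. In excitatory nuclei it was −0.38 (SE 0.122, unadjusted p = 0.00774, adjusted p = 0.55 in edgeR) and in inhibitory nuclei −0.35 (SE 0.123, adjusted p = 0.687). In granule nuclei, where each CIH library lay below each normoxia library, as for 5.73% of all genes, it was −0.49 (SE 0.16, adjusted p = 0.918). In excitatory and inhibitory nuclei the groups overlapped, since CIH 3 stood above Normoxia 3. Over all nuclei of a library the difference was −0.59 (SE 0.099, adjusted p = 0.216), with 109.7, 105.6 and 127.1 CPM after CIH and 170.3, 185.8 and 157.1 CPM in room air. The groups did not overlap, as for 9.18% of all genes, and these sums mix classes whose shares differ between libraries.

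Among inhibitory nuclei the Glra1 difference was −0.54 (SE 0.188, adjusted p = 0.827, edgeR) without a Slc6a5 UMI and −0.11 (SE 0.102, adjusted p = 0.943) with one. Whether these values differ was not tested. Without CIH 3 the Glra1 difference passed in all nuclei (−0.69, adjusted p = 0.0069), all neurons (−0.72, adjusted p = 0.0024), other neurons (−0.59, adjusted p = 0.0188) and inhibitory nuclei without a Slc6a5 UMI (−0.88, adjusted p = 0.0152). Leaving out CIH 3 also raised the calls over all genes, to 545 of 19755 in all nuclei, 948 of 17675 in all neurons, 121 of 15504 in other neurons and 23 of 11450 in inhibitory nuclei without a Slc6a5 UMI. All neurons include granule nuclei, which held less Glra1 than excitatory nuclei. Granule nuclei were 862 of 2029 neurons in CIH 1, 999 of 2128 in CIH 2 and 452 of 2751 in CIH 3. In normoxia they were 346 of 1926, 420 of 2228 and 422 of 4183. The part of this mix in the differences over all nuclei and all neurons was not tested.

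Slc6a5 was lower in CIH in 6 of 7 populations tested, and in 4 of the 5 that share no nuclei. In inhibitory nuclei its level was 95.9 ± 2.57 CPM after CIH and 138 ± 30.6 CPM in room air (SD, n = 3), and every CIH library lay below every normoxia library, as they did for 5.21% of all genes. The log2 fold change was −0.52 (SE 0.137, unadjusted p = 0.00267, adjusted p = 0.526 in edgeR). It was −0.61 in all neurons (SE 0.148, adjusted p = 0.18), −0.57 in neurons without a clear transmitter (SE 0.162, adjusted p = 0.32) and −0.51 in granule nuclei (SE 0.195, adjusted p = 0.918). In excitatory nuclei, at background level, it was 0.06. The inhibitory difference passed without Normoxia 3 (−0.69, adjusted p = 0.028), as 1 of 4 genes called among 14104. In all neurons it passed without CIH 3 (−0.74, adjusted p = 0.0165), in the fit with 948 calls given above.

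Glrb was lower in CIH in each of the 12 populations tested, from −0.92 to −0.13 in the 8 that share no nuclei. In neurons it stood at 158.0, 158.4 and 142.8 CPM after CIH and 188.7, 189.9 and 174.2 CPM in room air, with no overlap, as for 9.46% of all genes. The log2 fold change was −0.27 in all neurons (SE 0.061, unadjusted p = 0.00209, adjusted p = 0.172 in edgeR), −0.28 in excitatory nuclei (SE 0.088, adjusted p = 0.533, no overlap, as for 4.91% of all genes) and −0.35 in neurons without a clear transmitter (SE 0.079, adjusted p = 0.23, no overlap, as for 5.24%). In oligodendrocytes it was −0.23 (SE 0.113, adjusted p = 0.919). In microglia it was −0.92 (SE 0.362, adjusted p = 0.998), with no overlap, as for 4.87% of all genes, on 83 UMIs in all. With any 1 library left out, the neuronal value stayed between −0.30 and −0.23.

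Gphn leaned the other way, with higher values in CIH in 12 of 13 populations, and in 8 of the 9 that share no nuclei. In oligodendrocytes it stood at 891.1, 887.5 and 881.5 CPM after CIH and 746.8, 772.0 and 848.2 CPM in room air, a log2 difference of 0.15 (SE 0.067, adjusted p = 0.919 in edgeR). The CIH libraries lay above all normoxia libraries there, as for 6.37% of all genes. In excitatory nuclei the difference was 0.01 (SE 0.098). Slc6a9 was 0.28 in astrocytes (SE 0.246, adjusted p = 0.942) and 0.03 in oligodendrocytes (SE 0.111). Glra2 was lower in 6 of 9 populations, but in the 5 that share no nuclei it was lower in 2 and higher in 3. Glra3 was lower in 7 of 9 populations and in 4 of the 5 that share no nuclei. In excitatory nuclei Glra3 stood higher in CIH, at 0.23.

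**Figure D3:**
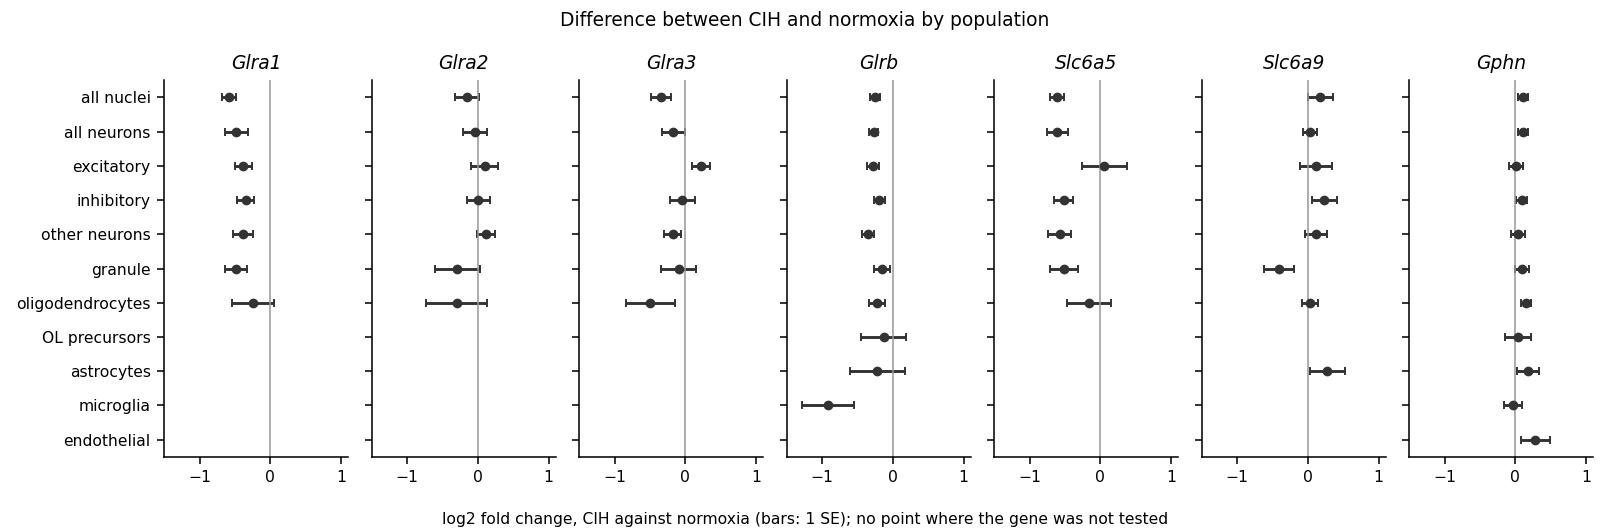
Log2 fold change of CIH against normoxia (x axis, bars of 1 SE) for each gene in 11 populations (y axis); no point is drawn where a gene was not tested. Values for Glra1 and Glrb lie below 0 in every population drawn, and none passed the test.

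Across the 7 genes the median log2 fold change was −0.26 in all nuclei, −0.17 in all neurons, 0.06 in excitatory, −0.04 in inhibitory and −0.29 in granule nuclei, while the median over all genes was within 0.01 of 0 in each. An unadjusted p under 0.05 was found for 4 of 7 members in all nuclei (11.1% of all genes), 3 in all neurons (13.7%), 2 in excitatory nuclei (7.63%), 3 in inhibitory nuclei (6.85%), 2 in granule nuclei (5.15%) and 3 in neurons without a clear transmitter (8.83%). It was found for 1 member in inhibitory nuclei with a Slc6a5 UMI (5.76%), 1 in those without (5.95%), 1 in microglia (4.67%) and 0 in oligodendrocytes (5.23%). DESeq2 called 2 members in all nuclei, Glra1 and Slc6a5, among 237 of 19644 genes, and 1 in all neurons, Slc6a5, among 309 of 17521 genes. The CIH difference itself was compared between inhibitory and excitatory nuclei, and 0 of 7 members were called, with 0% of all genes (limma, Benjamini-Hochberg), and none had an unadjusted p under 0.05, as 6.02% of all genes did. The largest was Slc6a5 at −0.55 (SE 0.304, adjusted p = 0.877), and Glra1 was at 0.03 (adjusted p = 0.995).

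Genes that mark position along the brainstem ordered the libraries much as Glra1 did, and in part as Slc6a5 did in inhibitory nuclei. The 8 caudal Hox genes, which mark the medulla, were all detected in each library. In excitatory nuclei their summed level was 45.9, 57.2 and 84.0 CPM after CIH and 109.6, 98.1 and 72.2 CPM in room air. In inhibitory nuclei it was 58.7, 56.1 and 90.7 CPM after CIH and 106.2, 103.6 and 72.7 CPM in room air. CIH 1 and CIH 2 were lowest, Normoxia 1 and Normoxia 2 highest, and CIH 3 lay above Normoxia 3, the order also seen for Glra1. Slc6a5 in inhibitory nuclei differed in that CIH 3 lay below Normoxia 3. In excitatory nuclei Slc6a5 was at background level and did not follow the Hox sum. The 6 rostral genes, among them En1, Gata3 and Pax7, summed to 42.0, 47.8 and 28.8 CPM in inhibitory nuclei in CIH and 18.0, 12.9 and 29.8 CPM in room air. The libraries run in the reverse of their order by the caudal sum, apart from Normoxia 1 and Normoxia 2, which change places.

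**Figure D4:**
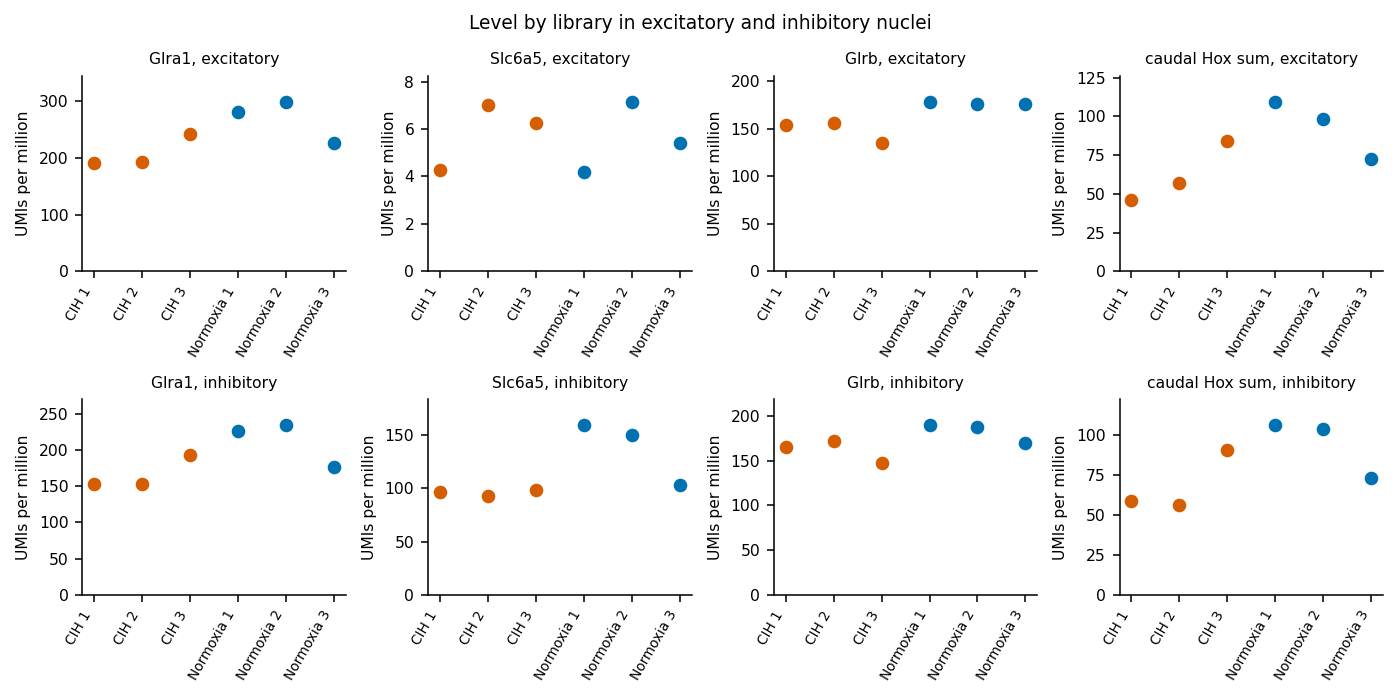
CPM (y axis) of Glra1, Slc6a5, Glrb and the sum of 8 caudal Hox genes by library (x axis) in excitatory (top) and inhibitory nuclei (bottom). CIH 1 and CIH 2 are lowest and Normoxia 1 and Normoxia 2 highest in both Glra1 and the Hox sum, with CIH 3 above Normoxia 3 in both.

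Restricting each class to nuclei with a caudal Hox UMI was an alternative chosen after the data were seen. It changed the members' values by unlike amounts, and whether the changes differ between members was not tested. For Glra1 the log2 fold change went from −0.38 to −0.06 (SE 0.115) in excitatory nuclei, from −0.35 to −0.14 (SE 0.103) in inhibitory nuclei and from −0.38 to −0.02 in other neurons. In inhibitory nuclei without a Slc6a5 UMI it stayed about as large, at −0.51 (SE 0.227, unadjusted p = 0.039, adjusted p = 0.993 in edgeR) against −0.54. For Slc6a5 it went from −0.52 to −0.21 (SE 0.129) in inhibitory nuclei and from −0.57 to −0.07 in other neurons. Glrb was about as large: −0.26 (SE 0.083) against −0.27 in all neurons, −0.23 (SE 0.11) against −0.19 in inhibitory nuclei and −0.30 (SE 0.118) against −0.35 in other neurons, though −0.18 (SE 0.116) against −0.28 in excitatory nuclei. None of these values passed (adjusted p from 0.725 for Glrb in all neurons upward in edgeR). Nuclei without a Hox UMI include medullary nuclei in which it was missed. The part of position along the brainstem in the CIH differences was not tested.

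The share of nuclei with a Slc6a5 UMI was split in the same way. Among inhibitory nuclei with a caudal Hox UMI it was 65.9, 65.4 and 48.6% in CIH and 70.1, 67.7 and 53.8% in normoxia, so that the groups overlapped (difference −3.92 percentage points, exact permutation p = 0.5). Among those without one it was 29.8, 28.3 and 30.6% in CIH and 47.1, 48.6 and 32.6% in normoxia, with no overlap (−13.2 percentage points, exact permutation p = 0.1, the smallest possible). These shares are not thinned.

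**Figure D5:**
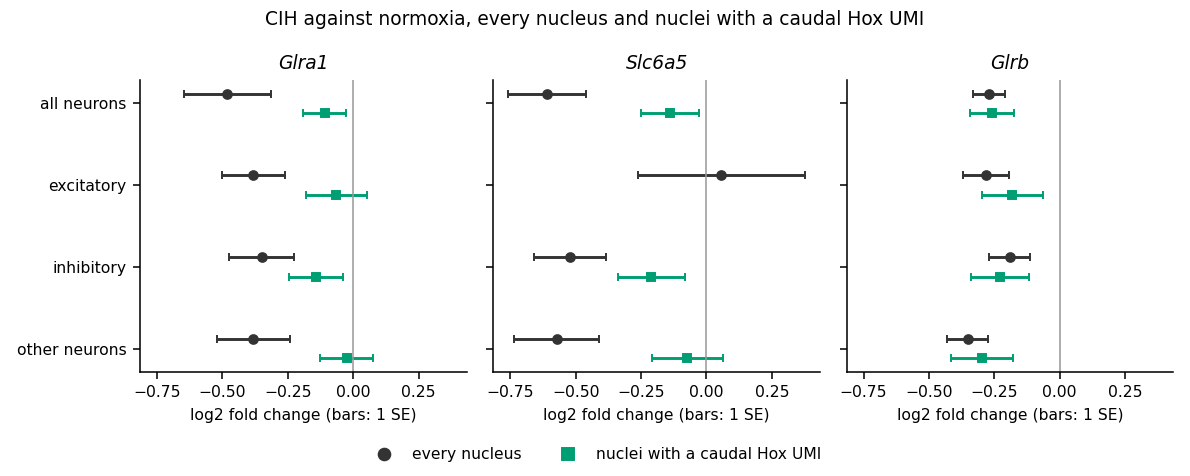
Log2 fold change of CIH against normoxia (x axis, bars of 1 SE) for Glra1, Slc6a5 and Glrb in 4 neuron populations (y axis), over every nucleus (circles) and over nuclei with a caudal Hox UMI (squares). Slc6a5 has no square in excitatory nuclei, where it was not tested; for Glra1 and Slc6a5 the squares lie nearer 0 than the circles, whereas for Glrb they stay between −0.30 and −0.18.

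Markers of astrocytes also moved with the groups in inhibitory nuclei and in all neurons, but not in excitatory nuclei. All 10 astrocyte markers were detected in neurons of each library, and their sum in inhibitory nuclei was 106.5, 96.5 and 160.7 CPM after CIH and 83.0, 78.0 and 75.6 CPM in room air. In all neurons it was 276.5, 292.3 and 253.9 CPM after CIH and 136.1, 134.4 and 115.2 CPM in room air. In excitatory nuclei it was 84.8, 117.3 and 180.8 CPM after CIH and 101.5, 97.0 and 103.1 CPM in room air, and the groups overlapped. Granule markers in all neurons were 1495, 1727 and 714 CPM after CIH and 607, 644 and 457 CPM in room air. Their part in the members' differences was not tested.

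Of the pathway genes, 0 were called between CIH and normoxia in any population. In inhibitory nuclei the smallest p belonged to Gldc, at 15.3, 19.1 and 6.45 CPM after CIH and 6.43, 4.65 and 1.66 CPM in room air (1.72, SE 0.456, adjusted p = 0.526 in edgeR). CIH 3 and Normoxia 1 were nearly equal, so the groups only just failed to overlap. Nlgn2 (0.31) and the dynein light chain genes Dynll2 (0.64) and Dynll1 (0.51) followed. In all neurons the smallest were Slc12a2 (0.34, adjusted p = 0.192), Gldc (1.31, adjusted p = 0.192), Slc38a3 (1.87, adjusted p = 0.206) and Slc7a10 (1.50, adjusted p = 0.217). Of these, Gldc, Slc38a3 and Slc7a10 were higher in astrocytes than in oligodendrocytes, as given above. In all neurons Slc38a3 rested on 10, 11 and 37 UMIs in CIH and 6, 5 and 9 in normoxia. Slc7a10 rested on 31, 33 and 105 UMIs in CIH and 15, 25 and 37 in normoxia, and CIH 3 had the highest CPM of both genes. Gldc was also higher in neurons than in oligodendrocytes (1.63, SE 0.27, adjusted p = 8.9e-05) and higher in inhibitory than in excitatory nuclei, and Slc12a2 was higher in granule than in excitatory nuclei. In excitatory nuclei they were Amt (−0.50), Shmt2 (−0.78), Dynll1 (0.42) and Mdga1 (0.37), with adjusted p of at least 0.65. In granule nuclei Slc32a1 stood at −0.76 (adjusted p = 0.918), beside the value of Slc6a5 given above.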

How the data were processed

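Single nuclei from 3 CIH and 3 normoxia libraries were sorted from frozen pons and medulla and sequenced with a 10x 3′ kit, per the labels' protocols. The deposited values are raw UMI counts per gene and nucleus, which the authors made with Cell Ranger (6.1.2 per the file headers, 3.1.0 per the submitters' processing notes) on mm10. Whether intronic reads were counted is not given in the sources used here, and this decides how much a long gene such as Gphn yields in nuclei. Library totals run from 26733243 to 46754345 UMIs. A class of few nuclei is limited by counting error.

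Nuclei were kept from 500 genes upward if no more than 5% of UMIs were mitochondrial. A nucleus took the class of which at least 50% of markers were detected, by a margin of 30 percentage points over the next class, which also leaves out many doublets. Excitatory and inhibitory neurons needed 2 UMIs of their markers and a 3-fold excess over the other transmitter, and granule neurons 4 of 8 markers. Serotonergic and cholinergic neurons needed 2 markers. These thresholds, and the removal of nuclei of Normoxia 2 that share a barcode with CIH 1, were chosen after the data were seen.

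Counts were summed per library and class and tested with edgeR 4.0.16 (quasi-likelihood test, TMM, filterByExpr, Benjamini-Hochberg over all genes tested, threshold 0.05) in R 4.3.3, where each library had at least 20 nuclei. CIH comparisons had no covariate. Comparisons between classes had the library as a block. The 2 to 23 cholinergic nuclei and the 8 to 27 serotonergic nuclei per library were too few for a CIH test, and cholinergic nuclei entered a class comparison alone. The difference of effects used limma 3.58.1, and the share of nuclei an exact permutation test. Serotonergic nuclei entered no test. The edgeR step was tested on simulated counts.

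The members, lists and tests were chosen with earlier results of these data known. All 7 members are described. Pathway genes are named where they passed (up to 8 by smallest p), or else the 4 of smallest p, and 5 genes of like pattern per member by Pearson correlation of log2 mean CPM. One pathway gene that is in the counts is not reported here by name. Alternatives were RLE size factors, DESeq2 1.42.0, no low-count filter, stricter nuclei (from 1000 genes, no more than 1% mitochondrial), removal of top Scrublet scores, classes from Leiden clusters, a stricter gate, a depth covariate, a block or its absence, other thinning depths and each library left out. Added after the data were seen were keeping the shared nuclei, leaving out cerebellar inhibitory nuclei, splitting by a caudal Hox UMI and summing libraries 1 and 2 of a group.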

Additional observations from a re-analysis of the deposited data

How the results depend on the processing

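Of the values for single genes, 1736 stayed on their side of the threshold under an alternative, 22 came to pass, 37 ceased to pass and 2 reversed. A change of sign between values that did not pass was counted as staying. The CIH difference of Glra1 in oligodendrocytes, for example, ran from −0.67 to 0.016 with 1 library left out. Of the counts of members called and the share, 304 stayed the same or near it and 27 moved. The reversals were in inhibitory nuclei with against without a Slc6a5 UMI with classes from clusters, where Glra2 was 0.88 (adjusted p = 0.554) and Gphn −0.16 (adjusted p = 0.742, edgeR). The cause was not tested. For CIH, 0 members were called at first. DESeq2 called 2 in all nuclei and 1 in neurons, the depth covariate 2 in all nuclei, and no low-count filter 1 in excitatory, 2 in inhibitory, 1 in other neurons and 1 in inhibitory nuclei without a Slc6a5 UMI. Over all genes these fits called 237, 309 and 242, and without the filter 182, 222, 171 and 110, against 1, 0 and 1, and 0, 1, 3 and 0. Classes from clusters called 1 in granule nuclei, among 174 genes. With 1 library left out the count ranged from 0 to 2 in all nuclei and in neurons, and from 0 to 1 in inhibitory nuclei, other neurons and inhibitory nuclei without a Slc6a5 UMI. These calls were Glra1 or Slc6a5, lower in CIH. Without CIH 3, 948 genes of all were called in neurons and 545 in all nuclei, against 0 and 1. Without the library block, 1 member was called in inhibitory against excitatory nuclei, against 3. In inhibitory nuclei with against without a Slc6a5 UMI, the 4 calls became 1 with DESeq2, clusters, the stricter gate or no library block, 2 without cerebellar nuclei, and 1 to 4 with 1 library left out (1 without CIH 3, 2 without Normoxia 1 or Normoxia 2). Calls over all genes in the alternative fits of these class comparisons are not given, so a change particular to the members cannot be read from these counts. The difference in the share of Slc6a5 nuclei was −1.99 percentage points at 500 UMIs, −7.44 at 2000, −13.8 not thinned, −10.1 with at least 2 UMIs and −13.2 without a caudal Hox UMI, and −5.92 to −3.67 with 1 library left out. With the replicate number as a block, 0 members were called in any population, while the genes called overall became 270 in neurons, 61 in oligodendrocytes and 27 in other neurons. Same-numbered libraries had deviations correlated above 0.1 in every pair in neurons (0.17, 0.23 and 0.34) and oligodendrocytes, but not in all, excitatory or inhibitory nuclei. Unlike-numbered libraries were about as close in neurons, at 0.20 for CIH 1 with Normoxia 2 and 0.17 for CIH 2 with Normoxia 1. In neurons and oligodendrocytes, library 3 of each group correlated negatively with libraries 1 and 2 of the other. The labels do not tie a number to a litter or day. With classes from clusters, CIH in excitatory nuclei and the pairs against excitatory nuclei could not be fitted. Few nuclei limit the serotonergic and cholinergic values, with 82 and 84 in all.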
